A study of Homo sapiens with 6 samples.

Results

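The genes examined were those of the translation initiation factors, the proteins that bring messenger RNA, the initiator tRNA and the ribosomal subunits together. Members were protein-coding genes of the count tables whose symbol is EIF followed by a digit. The Y-linked copy of the eIF1A gene was left out, as were the 4 eIF2-alpha kinase genes, 81 pseudogenes and 6 non-coding RNAs with EIF symbols. This gave 51 of 60651 genes, of which 47 had enough counts to be tested among 22443 tested genes. The 4 members not tested were *EIF3CL*, *EIF4E1B*, *EIF4EBP3* and *EIF5AL1*, each with a mean under 0.2 CPM, the count scaled to a common library total.

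Total RNA of human neuroblastoma cells, depleted of ribosomal RNA, was sequenced in 6 libraries, 3 with titles naming EtOH and 3 with titles naming Tet, and the labels give 5 days of tetracycline. The comparison asks which transcripts differ when tetracycline acts on a *MYCN* construct. The labels do not name a common cell model: the titles give IMR575, a tag speaks of a knockdown, and the protocol text describes single clones of SK-N-SH with an inducible *MYCN* transgene, all kept in G418 and blasticidin. The study's methods describe SK-N-AS cells with inducible *MYCN* and IMR-5/75 cells, which carry *MYCN* amplification, with an inducible *MYCN* shRNA. Libraries are therefore named by title only, as EtOH 1 to 3 and Tet 1 to 3. *MYCN* itself did not separate them: the mean was 190.0 ± 57.4 CPM for EtOH and 180.7 ± 30.6 CPM for Tet (SD, n = 3 libraries each), a log2 fold change of -0.07 with an SE of 0.23 and, by edgeR, an adjusted p of 0.956.

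Initiation begins when eIF2, loaded with initiator tRNA and GTP, joins eIF1, eIF1A, eIF3 and eIF5 on the small ribosomal subunit. The eIF4F complex of cap-binding eIF4E, scaffold eIF4G and helicase eIF4A then recruits this assembly to the capped mRNA, helped by eIF4B and eIF4H. After the start codon is found, eIF5B promotes joining of the large subunit, and eIF2B reloads eIF2 with GTP. Many mRNAs of the translation machinery begin with a C followed by a run of pyrimidines, the terminal oligopyrimidine (TOP) start, through which mTOR and LARP1 control their translation and stability. MYC proteins bind CACGTG, and genes of the translation machinery are among their known targets.

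The annotated first bases of the members are shown because a TOP start is a feature that the choice of members did not use. RefSeq promoters (GRCh38.p14, 250 bases before to 50 after the start) matched 43 of 51 members by symbol. *EIF2S2*, *EIF3A*, *EIF3CL*, *EIF3E*, *EIF3G*, *EIF3H*, *EIF3L* and *EIF4EBP1* had no entry. A C and at least 4 more pyrimidines stood at the annotated start of 10 of 43 members (23.3%), against 5.14% of 27305 gene symbols and 7.52% of 10251 symbols of tested protein-coding genes. Each line gives 30 bases in the direction of the gene, 15 on each side of the start, and capitals mark the pyrimidine run that begins at the first transcribed base.
EIF4B (chr12:53006441-53006470, plus strand): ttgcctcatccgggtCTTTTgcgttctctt
EIF3M (chr11:32583816-32583845, plus strand): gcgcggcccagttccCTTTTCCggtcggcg
EIF3F (chr11:7987322-7987351, plus strand): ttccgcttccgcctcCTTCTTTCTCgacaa
EIF3D (chr22:36529152-36529181, minus strand): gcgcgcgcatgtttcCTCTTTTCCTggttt
EIF3K (chr19:38619173-38619202, plus strand): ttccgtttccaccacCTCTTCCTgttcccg
EIF2A (chr3:150546772-150546801, plus strand): tcacccgagcggtttCTCTTTCCgggacaa
EIF2D (chr1:206612451-206612480, minus strand): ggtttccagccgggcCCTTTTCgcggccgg
EIF2S3 (chrX:24054941-24054970, plus strand): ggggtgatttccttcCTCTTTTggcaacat
EIF2S3B (chr12:10505875-10505904, plus strand): ggggtgactttcttcCTCTTTTggcaacat
EIF4A2 (chr3:186783562-186783591, plus strand): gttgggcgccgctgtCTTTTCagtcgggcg
For contrast, the windows of 4 abundant members without such a run follow, all in lower case.
EIF4G2 (chr11:10807982-10808011, minus strand): gaggttgtcggaagcacttccctaacttgc
EIF5B (chr2:99337374-99337403, plus strand): gcgcactgagaactcacaccatatgtgtcc
EIF5 (chr14:103334222-103334251, plus strand): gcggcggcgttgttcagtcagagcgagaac
EIF3J (chr15:44537132-44537161, plus strand): cacctccgccgtgctaactcctcgctagct
The runs were 5 to 10 bases long. The starts that were used in these cells were not measured.

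Libraries held 27933378 to 40498065 counts, so that 3 counts corresponded to 0.0741 to 0.107 CPM. Transcripts of the mitochondrial genome took 4.12% to 10.01% of counts and ribosomal protein genes 0.607% to 1.38%. The first principal component held 44.7% of the variance and set EtOH 2 and Tet 2 apart from the other libraries, whereas the second (25.7%) separated the labels. The study's methods describe its in vitro work in general as done with independent biological replicates, and the labels do not say whether the libraries of a group came from separate cultures, so p-values measure the spread between these samples. In bulk RNA, fewer cells of a type and less RNA per cell cannot be told apart. Neuroblastoma markers were present (*GATA3* at 247 ± 17.2 CPM in EtOH and 316 ± 17.4 CPM in Tet; SD, n = 3 each), with *TH* and *DBH* at or near 0. The 10 markers of that list summed to 567 to 691 CPM in EtOH and 710 to 860 CPM in Tet libraries. Of 8 tested, 6 had every Tet library above every EtOH library, as did 9.2% of all genes. The 10 mesenchymal, fibroblast and Schwann-like markers summed to 291 to 514 CPM in EtOH and 257 to 363 CPM in Tet, with *COL1A2* and *S100B* at 0 in all libraries. Among 8 tested, 2 had every Tet library below every EtOH library, as did 8.28% of all genes. The part of these shifts in the results below was not tested.

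Levels of the initiation factor genes spanned more than 3 orders of magnitude. Per merged exon length, the highest mean over the 6 libraries was that of *EIF4G2* (311 ± 62.9 TPM, the level per base of exon scaled to a common total, SD, n = 6), an eIF4G-like protein that lacks the eIF4E-binding region. *EIF5B*, the GTPase of subunit joining, followed at 259.8 ± 45.2 TPM and *EIF3J*, a loosely bound eIF3 subunit, at 232 ± 62.8 TPM. *EIF4G2* exceeded *EIF5B*, and *EIF5B* exceeded *EIF3J*, by less than its own SD over libraries. In CPM, *EIF4G2* ranked 59 and *EIF3E* 60 among all genes. The order, over all members and within eIF3, depended on the length used. *EIF3E* stood at 68.7 TPM over its 37761 bases of merged exons but at 1007 TPM over the 2022 bases of its canonical transcript. On that scale it was above *EIF4G2* at 545 TPM and *EIF3J* at 229.7 TPM, and *EIF4A2* (383 TPM) was above *EIF5B* (279 TPM).

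At the other end stood several genes of central factors. *EIF5A*, the hypusine-bearing factor of elongation and initiation, had 1.79 CPM against 30.4 CPM for its paralogue *EIF5A2*. *EIF6*, an anti-association factor of the large subunit, had 0.307 CPM, *EIF3C* 1.15, *EIF4EBP1* 1.602, *EIF3K* 1.84 and *EIF3G* 2.41 CPM. Their exons were 49.9% (*EIF3C*) to 61.7% GC (*EIF4EBP1*). Across the 47 tested members, exon GC content and log2 TPM had a Pearson r of -0.715 (Spearman rho -0.723), a description across genes, which share libraries and are not independent replicates. The same r over 12830 tested protein-coding genes was -0.613. Members with an exon GC of at least 45% had a median level of 18.9 CPM (24 genes), against 196 CPM for those under 40% (11 genes). A further limit applies to reads that align to more than 1 place, which were not counted: *EIF3C* and *EIF3CL* are near-identical, and *EIF4A1* has 13 annotated pseudogenes, *EIF4B* 9, and *EIF1* and *EIF2S2* 7 each.

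**Figure D1:**
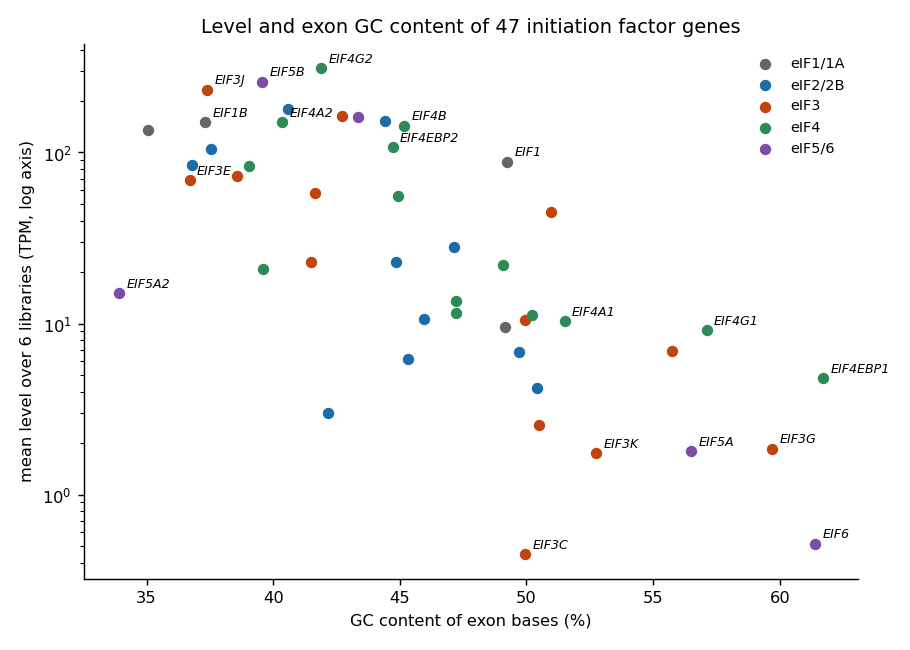
Mean level over the 6 libraries (TPM, log axis) against the GC content of exon bases (percent) for the 47 tested members, 1 point per gene, coloured by complex. GC-poor members such as EIF4G2, EIF5B and EIF3J sit at the top left, and EIF6, EIF5A, EIF3G and EIF4EBP1, all with a mean under 3 CPM, at the right and below.

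No initiation factor gene passed the adjusted threshold of 0.05 in the comparison of Tet with EtOH (0 of 47), where 0.236% of all tested genes passed it (0.147% higher and 0.0891% lower in Tet, edgeR). In simulated counts the same fit recovered 18.5% of genes given a log2 fold change of 1. A missing call therefore does not show that a gene is unchanged. At an unadjusted p under 0.05, 4 of 47 members were lower in Tet and 0 higher. Over all genes, 4.94% were lower and 5.83% higher (10.8% in either direction). The 4 members were the eIF3 subunit genes *EIF3E*, *EIF3H* and *EIF3M*, and *EIF4B*. Limma-voom gave 0 adjusted calls as well and the same 4 genes as lower at an unadjusted p under 0.05, where 4.67% of all genes were lower and 5.81% higher (10.5% in all). DESeq2 gave 0 adjusted calls for members and had *EIF3L* in place of *EIF3M* among its 4, all lower, where 3.17% of all genes were lower and 3.48% higher (6.64% in all). The groups did not overlap for 8 members, 7 of them with all Tet libraries below all EtOH libraries (14.9% of 47) and 1 above (2.13%), whereas 8.28% of all genes had Tet below and 9.2% Tet above (17.5% in all). Of the 47 members, 28 had a log2 fold change below 0 (59.6%), against 50.7% of all genes, and the median was -0.10 against -0.01 for all genes. The members' median was -0.034 without EtOH 1 and -0.17 without EtOH 3 or without Tet 3.

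By complex, the median log2 fold change was -0.29 for eIF3 (13 tested genes, 9 below 0), -0.24 for eIF2 and eIF2B (11 genes, 9 below 0), -0.14 for eIF1 and eIF1A (4 genes, 2 below 0), -0.03 for eIF4 (14 genes, 8 below 0) and 0.19 for eIF5, eIF5A, eIF5B and eIF6 (5 genes, 0 below 0). These medians moved with single libraries. That of eIF3 was -0.03 without EtOH 1, that of the eIF5 to eIF6 group was -0.03 without Tet 3, and that of eIF4 was 0.05 without EtOH 1. The median of eIF1 and eIF1A lay between -0.27 and -0.07 as libraries were left out in turn. That set was *EIF1* (-0.36), *EIF1AD* (-0.32), *EIF1AX* (0.04) and *EIF1B* (0.18), so that the sign of its median depended on counting *EIF1AD* in it.

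**Figure D2:**
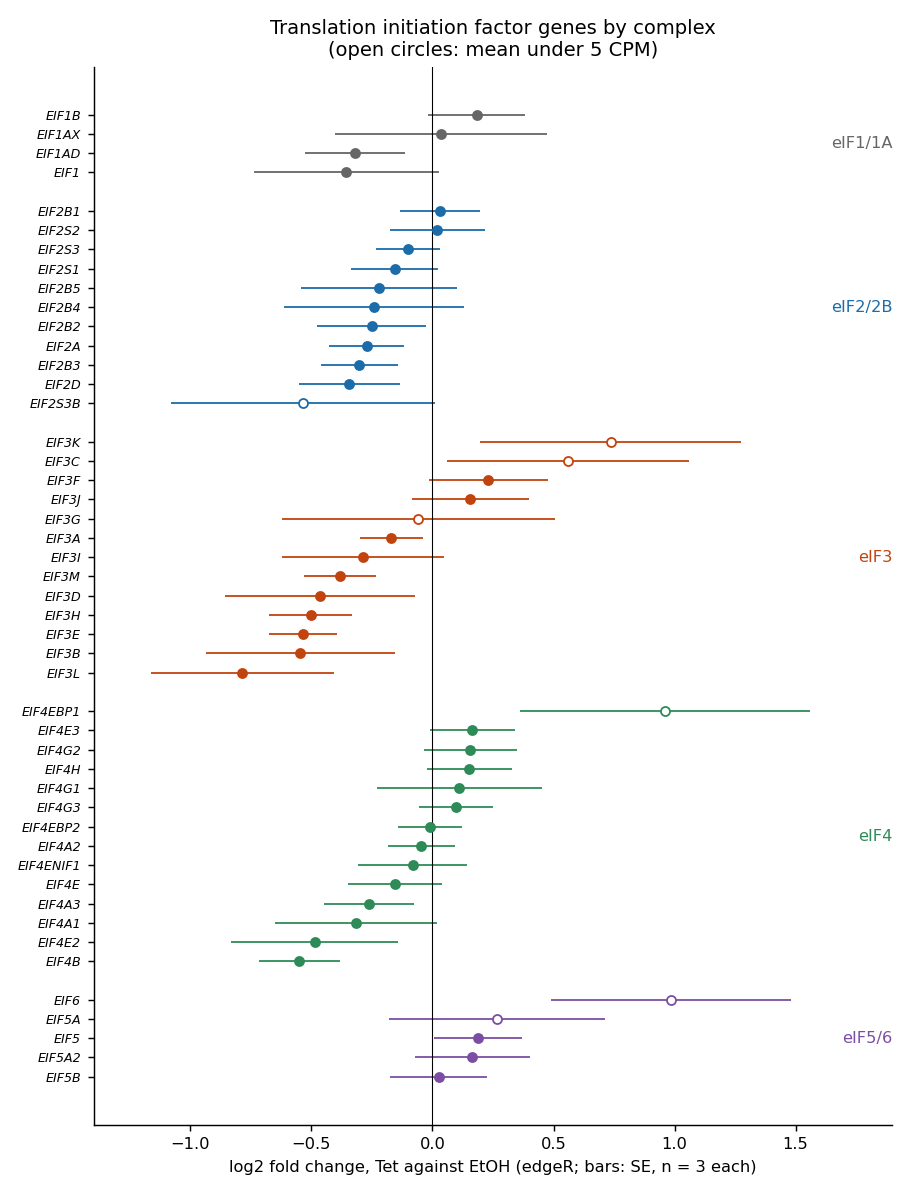
Log2 fold change of Tet against EtOH for the 47 tested members, grouped by complex, with the standard error as a bar (n = 3 libraries each); open circles are genes with a mean under 5 CPM. The 4 genes with an unadjusted p under 0.05, EIF3E, EIF3H, EIF3M and EIF4B, lie left of 0 with short bars, and the 5 genes from EIF5 to EIF6 lie right of 0.

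The eIF3 complex, a scaffold of 13 subunits on the small ribosomal subunit, held the member with the smallest p. *EIF3E* (ENSG00000104408.11, GRCh38 chromosome 8, 108162787 to 108443496, minus strand) encodes a subunit of its octamer core. It had 1096, 1057 and 1217 CPM in EtOH 1 to 3 and 758, 755 and 815 CPM in Tet 1 to 3. Every Tet library was below every EtOH library with a gap wider than the range within either group. Means were 1123 ± 83.2 and 776 ± 33.5 CPM (SD, n = 3 each), 30.9% lower in Tet, with a log2 fold change of -0.53 (SE 0.14). The unadjusted edgeR p was 0.00467 and the adjusted p 0.198, with a range of 0.0372 to 0.746 over the alternative settings. The lowest, past the threshold, came with replicate number as a block, and the highest without EtOH 3.

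*EIF3H* (ENSG00000147677.11, chromosome 8, 116642130 to 116766925, minus strand), another core subunit, had 172, 135 and 178 CPM in EtOH and 110, 101 and 131 CPM in Tet. The highest Tet library came close to EtOH 2, the lowest of its group. Its log2 fold change was -0.50 (SE 0.17 and adjusted p 0.330, edgeR). *EIF3M* (chromosome 11, 32583798 to 32606264, plus strand), which also encodes a core subunit, had 212, 247 and 208 CPM in EtOH and 176, 184 and 153 CPM in Tet. Here EtOH 2 was the highest library, not the lowest, and the groups did not overlap. The log2 fold change was -0.38 (SE 0.15 and adjusted p 0.406, edgeR). *EIF3A*, the largest subunit, had replicates close together: 464, 448 and 443 CPM in EtOH against 402, 400 and 402 CPM in Tet, a difference of 11.1% in the means with a log2 fold change of -0.17 (SE 0.13) and an edgeR adjusted p of 0.718.

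**Figure D3:**
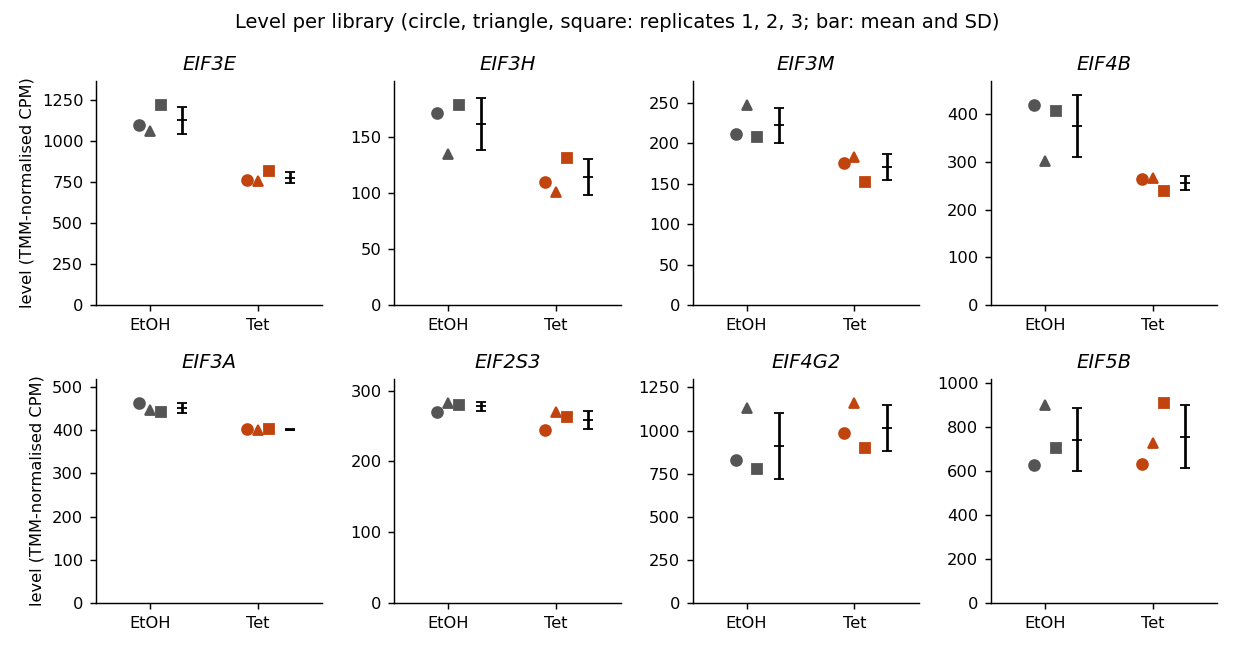
Level in each library (TMM-normalised CPM, axes from 0) for 6 members whose groups did not overlap, EIF3E, EIF3H, EIF3M, EIF4B, EIF3A and EIF2S3, and for the abundant EIF4G2 and EIF5B, whose groups did; symbols are replicates 1 to 3, and bars are the mean and SD. EIF3E ranged from 1057 to 1217 CPM in EtOH and from 755 to 815 CPM in Tet, whereas EIF4G2 ranged from 775 to 1130 CPM in EtOH alone.

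In the other eIF3 genes the groups overlapped. *EIF3L*, a core subunit, had the largest log2 fold change of the complex, -0.79 (SE 0.38 and adjusted p 0.518, edgeR), from 133, 39.0 and 98.6 CPM in EtOH and 58.8, 43.0 and 55.1 CPM in Tet. EtOH 2 lay below all 3 Tet libraries, and the log2 fold change was -0.41 without EtOH 1 and -1.14 without EtOH 2. Of its exon bases, 51.8% overlap another gene, so that its reads were shared. *EIF3B* and *EIF3D*, with log2 fold changes of -0.55 and -0.46, had EtOH 2 as their lowest library as well, and without EtOH 1 their values were -0.08 and -0.03. *EIF3F* had EtOH values of 99.9 to 147 CPM, Tet values of 106 to 182 CPM and a log2 fold change of 0.23 (SE 0.24), and *EIF3J* one of 0.16 (SE 0.24). *EIF3C* and *EIF3K*, the 2 with the highest values of the complex (0.56 and 0.74), had means under 2 CPM and values of 0.07 and 0.11 without Tet 3. The 8 core genes had a median of -0.28, and 4 of them had every Tet library below every EtOH library. The 5 peripheral ones had a median of -0.29 and 0 such genes, where 8.28% of all genes had Tet below. Without EtOH 1, the peripheral genes *EIF3B* and *EIF3D* moved as given above. In that fit *EIF3I* went from -0.29 to 0.10 and *EIF3J* from 0.16 to -0.03.

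The eIF2 trimer delivers the initiator tRNA. Its gamma subunit gene *EIF2S3* (chromosome X, 24054946 to 24078810, plus strand) had 271, 283 and 279.8 CPM in EtOH and 245, 269.8 and 262 CPM in Tet. The highest Tet library was below the lowest EtOH library by about 1 CPM, and the log2 fold change was -0.10 (SE 0.13 and adjusted p 0.860, edgeR). *EIF2A*, an initiator tRNA carrier outside the trimer, had 178, 231 and 189.9 CPM in EtOH and 157, 179 and 161 CPM in Tet, where only Tet 2 reached the lowest EtOH value (log2 fold change -0.27, SE 0.15). *EIF2S1*, the alpha subunit that the stress kinases phosphorylate, had a log2 fold change of -0.16 (SE 0.18) and *EIF2S2*, the beta subunit, one of 0.02 (SE 0.20).

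Of the 5 genes of eIF2B, the exchange factor of eIF2, 4 were below 0 with a median of -0.24. Without EtOH 1, *EIF2B4* and *EIF2B5* turned to 0.03 and 0.07, while *EIF2B2* and *EIF2B3* stayed below 0 at -0.14 and -0.26. *EIF2B3* (chromosome 1, 44850522 to 44986722, minus strand), the gamma subunit gene of eIF2B, had 42.2, 34.0 and 40.3 CPM in EtOH and 29.2, 31.4 and 33.9 CPM in Tet. This was a near contact between EtOH 2 and Tet 3, with a log2 fold change of -0.30 (SE 0.16 and adjusted p 0.558, edgeR). *EIF2D*, which can place tRNA without eIF2, had 39.8, 25.3 and 40.5 CPM in EtOH and 27.5, 25.6 and 30.1 CPM in Tet (log2 fold change -0.34, SE 0.21). EtOH 2 was its lowest library of all. *EIF2S3B*, a second gene for the gamma subunit, was at 1.05 to 5.11 CPM.

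In the eIF4 group, *EIF4B* (ENSG00000063046.18, chromosome 12, 53006282 to 53042215, plus strand) stood apart. It encodes an RNA-binding cofactor that stimulates the eIF4A helicase and is a substrate of S6 kinase. Levels were 419, 301 and 407 CPM in EtOH and 264, 265 and 240 CPM in Tet. EtOH 2 was the lowest of its group and still above every Tet library. Means were 375 ± 64.9 and 256 ± 14.4 CPM (SD, n = 3 each), 31.7% lower in Tet, with a log2 fold change of -0.55 (SE 0.17), an unadjusted edgeR p of 0.0102 and an adjusted p of 0.270, over a range of 0.0166 to 0.790 in the alternatives. Its exons overlap other genes over 12.2% of their bases.

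The scaffold genes did not share that direction: *EIF4G1*, *EIF4G2* and *EIF4G3* had log2 fold changes of 0.11 (SE 0.34), 0.16 (SE 0.19) and 0.10 (SE 0.15). The sign for *EIF4G1* turned without EtOH 2 (-0.13) and without Tet 3 (-0.30), and that for *EIF4G3* without EtOH 2 (-0.0042). Cap-binding *EIF4E* had 129, 194 and 155 CPM in EtOH and 121, 165 and 144 CPM in Tet, with EtOH 2 and Tet 2 the highest of their groups (log2 fold change -0.15, SE 0.19). *EIF4E2*, a cap-binding protein that represses translation, showed the opposite order, with 49.6, 20.5 and 45.8 CPM in EtOH and 25.4, 20.4 and 37.0 CPM in Tet (log2 fold change -0.49, SE 0.35). *EIF4A2* was near level at 342 ± 12.1 and 331 ± 28.2 CPM. *EIF4EBP2*, the highest per exon length of the genes for eIF4E-binding repressors (107 TPM), had 296 ± 5.91 and 294 ± 17.3 CPM, a log2 fold change of -0.01 (SE 0.13). *EIF4A3*, the helicase of the exon junction complex, had a log2 fold change of -0.26 (SE 0.19), the helicase cofactor *EIF4H* 0.15 (SE 0.18), the third cap-binding gene *EIF4E3* 0.16 (SE 0.18) and *EIF4ENIF1*, which carries eIF4E into the nucleus, -0.08 (SE 0.22), all with overlapping groups. *EIF4EBP1* was at 0.860 to 1.30 CPM in EtOH and at 0.993, 1.02 and 4.33 CPM in Tet, so that its log2 fold change of 0.96 (SE 0.60) rested on Tet 3 and was -0.11 without it.

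Ratios between paralogues and partners do not depend on how libraries are scaled. For 8 pairs, an exact permutation test, two-sided, was run on the log2 ratio of length-scaled counts, and with 3 libraries against 3 its smallest possible p is 0.1. No pair gave a p under 0.4, and every adjusted p over the 8 pairs was 1. *EIF4A1* to *EIF4A2*, the 2 helicase genes, had a mean log2 ratio of -3.86 ± 0.72 in EtOH and -3.99 ± 0.12 in Tet. *EIF4G1* to *EIF4G2* had -5.08 ± 0.82 and -5.16 ± 0.73, and *EIF5A* to *EIF5A2* -3.10 ± 0.90 and -3.08 ± 0.78 (SD, n = 3 each). In these 3 pairs the GC-poor paralogue was the higher in every library, and EtOH 2 had the lowest ratio of its group. Of the exon bases, 47.4% in *EIF4A1* and 17.9% in *EIF4A2* overlap another gene, so that reads there were shared. The lowest exact p was that of *EIF1* to *EIF1B*, the start-codon selection factor and its close copy, with log2 ratios of -0.04, -1.37 and -0.49 in EtOH and -0.72, -1.39 and -1.13 in Tet (difference -0.45, exact p = 0.4, adjusted 1). That difference was -0.15 without EtOH 1 and -0.82 without EtOH 2. *EIF4E* to *EIF4EBP2* had mean ratios of 0.801 in EtOH and 0.730 in Tet per merged exon length. By canonical transcript length the mean log2 ratio over all libraries was 0.65, so that which gene was higher depended on the length used.

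Among genes of the start-site scanning factors, *EIF1* had 188, 66.98 and 144 CPM in EtOH and 123, 63.3 and 126 CPM in Tet, with both second replicates lowest (log2 fold change -0.36, SE 0.38, but -0.04 without EtOH 1 and -0.67 without EtOH 2). *EIF1AX*, the X-linked eIF1A gene, ran the other way at 119.8, 389 and 130.2 CPM in EtOH and 190.0, 291 and 174 CPM in Tet, with both second replicates highest (log2 fold change 0.04, SE 0.44, but -0.27 without EtOH 1 and 0.81 without EtOH 2). *EIF1B* was at 100.4, 90.4 and 105 CPM in EtOH and 106, 86.4 and 144 CPM in Tet.

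The 5 genes of eIF5, eIF5A, eIF5B and eIF6 had log2 fold changes of 0.03 to 0.99, and 0 of them had an unadjusted p under 0.05. *EIF5*, the GTPase-activating protein of eIF2, had 421, 518 and 439 CPM in EtOH and 539, 416 and 614 CPM in Tet (edgeR adjusted p 0.796 for a log2 fold change of 0.19, SE 0.18), with overlapping groups. *EIF5B* had 627, 902 and 704 CPM in EtOH and 632, 728 and 912 CPM in Tet (log2 fold change 0.03, SE 0.20). *EIF6* (chromosome 20, 35278907 to 35284985, minus strand) was the member whose Tet libraries all lay above EtOH. Its values were 0.167, 0.252 and 0.198 CPM in EtOH and 0.354, 0.338 and 0.528 CPM in Tet, and the log2 fold change was 0.99 (SE 0.50 and adjusted p 0.536, edgeR). Such levels correspond to few counts, 3 counts being up to 0.107 CPM, and 17.3% of its exon bases overlap another gene.

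In several libraries, deviations ran with exon GC content, in the initiation factor genes as in others. In EtOH 2, the 24 members with an exon GC of at least 45% had a median deviation of -0.45 on the log2 scale from their own means over libraries, and the 23 others one of 0.18. EtOH 1 showed the reverse, 0.38 and -0.10. In Tet 2 the medians were -0.25 and -0.02. Across the 47 members, exon GC and the deviation had a Pearson r of 0.483, -0.580 and -0.0089 in EtOH 1 to 3 and of -0.299, -0.416 and 0.628 in Tet 1 to 3. Over 12830 protein-coding genes the values were 0.293, -0.397 and -0.018 in EtOH and -0.233, -0.277 and 0.600 in Tet, so that EtOH 3 had an r near 0 in both. These values describe genes that share libraries. GC content and the log2 fold change itself had an r of 0.258 and a rho of -0.003. Exon GC content was 36.7% for *EIF3E*, 38.6% for *EIF3M*, 41.7% for *EIF3H* and 45.2% for *EIF4B*, the 4 members with the smallest p, against a median of 45.2% over the 47.

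**Figure D4:**
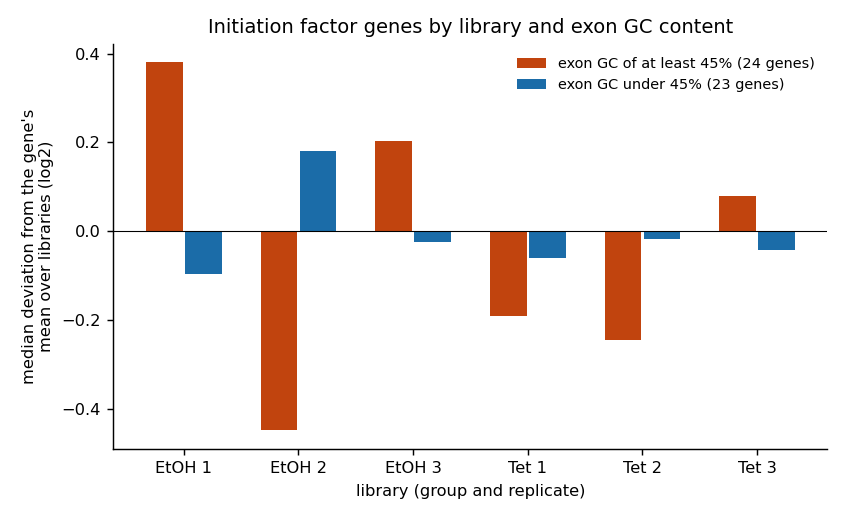
Median deviation of a gene's log2 level from its mean over libraries, for 24 members with an exon GC content of at least 45% and 23 under 45%, in each library. GC-rich members are at 0.38 in EtOH 1 and at -0.45 in EtOH 2, the widest spread within a label, while the GC-poor ones stay between -0.10 and 0.18.

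Which members passed depended on those libraries. Without EtOH 2, *EIF3E* (log2 fold change -0.57, edgeR adjusted p 0.0484), *EIF4B* (-0.68, 0.0246) and *EIF3L* (-1.14, 0.0166, with 0.0153 to 0.867 over all alternatives) were past the threshold, 3 of 47 members (6.38%), where 2.89% of all genes passed and 1.38% were lower. At an unadjusted p under 0.05, 14 members were lower and 4 higher in that fit, where 9.87% of all genes were lower and 10.7% higher (20.5% in all). Without EtOH 2 and Tet 2, a choice made after seeing the data, the same 3 genes passed as lower, at -0.55, -0.71 and -1.02, and *EIF1AX* passed as higher (0.55, adjusted p 0.0404, up to 0.998 under other settings), where 3.77% of all genes passed and 1.67% were lower. Without EtOH 1 or EtOH 3, the adjusted p of *EIF3E* was 0.489 and 0.746. Correction of each library for exon GC content, also added later, left 0 of 47 past the threshold (0.575% of all genes, 0.227% lower) and log2 fold changes of -0.57 for *EIF3E*, -0.52 for *EIF4B*, -0.51 for *EIF3H* and -0.40 for *EIF3M*. *EIF3E* and *EIF4B* kept an unadjusted p under 0.05 and a negative sign in each of the 17 fits that were run, main one included. *EIF3H* and *EIF3M* kept the sign in all of them, with the highest unadjusted p at 0.0686 and 0.112. These genes had been picked by their p in the main fit, and the fits share libraries. Their persistence is therefore not independent support.

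The printed start sequences split the members as follows, a split made after their values had been seen and given as a description. The 10 members with a pyrimidine run had a median log2 fold change of -0.31, 8 of 10 below 0, and 3 (*EIF3M*, *EIF4B* and *EIF2S3*) with Tet below EtOH in every library. The 30 tested members without the run had a median of 0.01, with 15 below 0, 1 with Tet below EtOH in every library and 1 with Tet above, where 8.28% and 9.2% of all genes had such a separation. *EIF3E*, *EIF3H* and *EIF3A*, which also had Tet below EtOH in every library, had no promoter entry. Their starts were not examined, and they are in neither set. Among members with a mean of at least 5 CPM, the medians were -0.31 with the run (8 genes, 7 below 0) and -0.08 without it (27 genes, 15 below 0). *EIF4B*, whose run CTTTT is the shortest of the 10, had the lowest log2 fold change among them, and *EIF3F*, with a run of 10 bases, had 0.23. The highest, *EIF3K* at 0.74, was measured at under 2 CPM. Levels of RNA do not show how these mRNAs were translated.

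**Figure D5:**
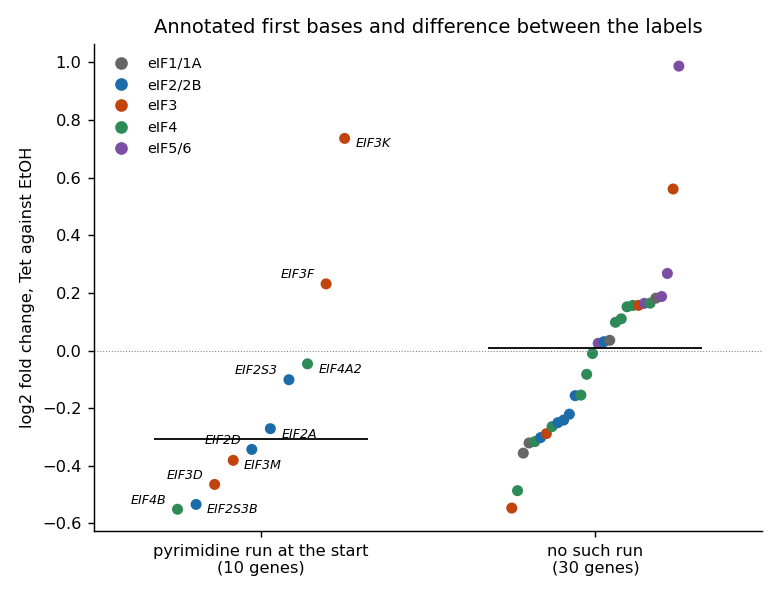
Log2 fold change of Tet against EtOH for the 40 tested members with an annotated start in the table, split by whether a C and at least 4 more pyrimidines stand at that start; points are genes coloured by complex, and lines are medians. The line of the 10 genes with the run is at -0.31 and that of the 30 others at 0.01, and the ranges of the points overlap widely.

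CACGTG, which reads the same on both strands, stood in these promoter windows of 11 of 43 members (25.6%), against 8.77% of 27305 symbols and 12.4% of 10251 tested protein-coding ones. The related CACGCG, searched on both strands, was in 18.6% of members and 22.2% of tested protein-coding symbols. *EIF4E* had 2 copies, of which the nearer began 72 bases before the start (chr4:98929188-98929217, minus strand). *EIF4B* had CACGTG 22 bases before its start (chr12:53006422-53006451, plus strand). Both windows of 30 bases are shown, with the motif in capitals, because these genes encode the cap-binding protein and the eIF4 member with the smallest p.
EIF4E: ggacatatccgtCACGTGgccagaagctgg
EIF4B: gcccgctataatCACGTGattgcctcatcc
The 10 tested members with the motif had a median log2 fold change of 0.13 and the 30 without it one of -0.13. *MYCN* was not detectably different between the labels, and dependence of these genes on *MYCN* was not tested.

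Other genes of translation were taken from fixed lists of 39 genes, of which 37 were tested. Of these, 0 passed the adjusted threshold in either direction, where 0.236% of all genes did. At an unadjusted p under 0.05, 1 was lower and 1 higher, where 4.94% of all genes were lower and 5.83% higher (10.8% in all). The lower one was *PABPC1*, the poly(A)-binding protein that contacts eIF4G, at 1078 ± 116 CPM in EtOH and 778 ± 99.0 CPM in Tet (edgeR adjusted p 0.332 for a log2 fold change of -0.47, SE 0.16), with every Tet library below every EtOH library. The higher one was *EEF1A2*, the neuronal and muscle form of elongation factor 1A, at 3.01 ± 0.48 and 8.38 ± 6.85 CPM (edgeR adjusted p 0.340 for a log2 fold change of 1.48, SE 0.52). Its Tet libraries, all above EtOH, had 4.18, 4.68 and 16.3 CPM, so that its mean rested largely on Tet 3. Its exons were 65.8% GC. Its abundant counterpart *EEF1A1* had 799.8 ± 449.8 and 436 ± 88.4 CPM and *EEF1B2* 93.3 ± 46.5 and 57.4 ± 10.6 CPM. Without EtOH 2 both passed as lower in Tet, at -1.25 (edgeR adjusted p 0.0171) and -1.05 (0.0178), where 1.38% of all genes did.

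Of the 6 genes for eIF2-alpha kinases and phosphatase subunits, 0 had an unadjusted p under 0.05, where 10.8% of all genes did. *EIF2AK3* (PERK) stood at 40.5 ± 1.80 and 46.4 ± 5.27 CPM with Tet above in every library, and *EIF2AK4* (GCN2) at 29.8 ± 3.06 and 24.4 ± 1.15 CPM with Tet below. Of all genes, 9.2% had Tet above in this way and 8.28% Tet below. The 8 genes of mTOR and MNK signalling had a median log2 fold change of 0.07, and *MTOR* itself 0.09 (SE 0.15). *LARP1*, the TOP-binding protein, was at 106 ± 13.6 and 101 ± 17.2 CPM. The termination factor genes *ETF1* and *GSPT1* had log2 fold changes of 0.03 and -0.22, and *DHPS*, the hypusination enzyme of eIF5A, was under 1 CPM under both labels.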

How the data were processed

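Values were deposited as estimated counts, with a table of genes for each library. Per the file headers, STAR alignments with a unique position were counted over exons by the authors with featureCounts 1.6.4 (the labels name 1.5.1 and STAR 2.7.1a, and the study's methods other options). Read pairs over several genes were divided among them and strand was not used, so overlapping and antisense genes share reads, and circular and linear RNA are not separated. The 92 spike-ins were at 0.

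Symbols came from GENCODE 44 (60437 of 60651 identifiers), and 53025 of 53026 identifiers of the same version had unchanged GRCh38 coordinates. Estimated counts were rounded, filtered with filterByExpr, scaled by TMM and fitted in edgeR 4.0.16 (quasi-likelihood F test, R 4.3.3), with Benjamini-Hochberg adjustment over all 22443 tested genes and a threshold of 0.05. SE is the log2 fold change over the root of F. CPM are TMM-normalised and TPM use merged exon length. Log2 ratios of pairs had a pseudocount of 0.5 counts. Promoters were RefSeq's. The main fit was run on simulated counts with 200 changed genes. It recovered 18.5% of them at a log2 fold change of 1 and 74% at 2, with 2.63% and 5.13% of calls false. Smaller changes were not simulated. Alternatives were RLE and upper-quartile scaling, no filter, at least 10 counts in every library, no mitochondrial genes, a replicate block, each library left out, DESeq2 1.42.0 and voom of limma 3.58.1. Added after seeing the data were a correction for exon GC content (lowess, span 0.3) and a fit without EtOH 2 and Tet 2.

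Named members were those with an adjusted or unadjusted p under 0.05 or no overlap between groups, the highest TPM and largest change (mean of at least 5 CPM) in each complex, and the genes of the pairs. Other members named with values (EIF1AD, EIF1AX, EIF2A, EIF2B2, EIF2B4, EIF2B5, EIF2S1, EIF2S2, EIF2S3B, EIF3B, EIF3C, EIF3D, EIF3F, EIF3G, EIF3I, EIF3K, EIF4A3, EIF4E3, EIF4ENIF1, EIF4H) and genes of other lists above a p of 0.05 were chosen after their values were seen. The members and all lists were chosen with earlier results of these data known.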

Additional observations from a re-analysis of the deposited data

How the results depend on the processing

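No initiation factor gene passed under either other scaling, either other filter, without mitochondrial genes, or with DESeq2, limma-voom or GC correction. With the replicate block 1 passed as lower (EIF3E, adjusted p 0.0372), and without EtOH 2 and Tet 2 3 passed as lower and 1 as higher, with 2 other translation genes lower. With each library left out in turn, 0 to 3 passed as lower and 0 as higher, and 0 to 2 other translation genes as lower. The 3 and the 2 came without EtOH 2. Of all genes, 53 passed in the fit as reported, 302 without a filter, 485 with DESeq2, 129 with GC correction, 675 with the block, 692 without EtOH 2, 874 without EtOH 2 and Tet 2, and 0 to 2 without any other library. Same-numbered libraries had correlations of deviations of 0.0603, 0.510 and 0.219, and 3 of 6 libraries correlated best with their own number, so replicate numbers were not taken as pairs.

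Left out in turn, libraries gave these ranges of log2 values. Complex medians ran from -0.38 to -0.14 for eIF2 and eIF2B, -0.45 to -0.034 for eIF3, -0.11 to 0.054 for eIF4 and -0.033 to 0.33 for eIF5 to eIF6, where the fit without both second replicates gave 0.37. MYCN ran from -0.22 to 0.21 and was 0.13 without both. Members named in the text whose sign turned ran from -0.27 to 0.81 (EIF1AX), -0.28 to 0.035 (EIF2S1), -0.093 to 0.20 (EIF2S2), -0.037 to 0.45 (EIF3F), -0.28 to 0.075 (EIF4ENIF1), -0.035 to 0.34 (EIF1B), -0.034 to 0.48 (EIF3J), -0.60 to 0.15 (EIF4A1), -0.12 to 0.014 (EIF4A2), -0.31 to 0.016 (EIF4E), -0.11 to 1.30 (EIF4EBP1, 1.44 without both), -0.053 to 0.019 (EIF4EBP2), -0.30 to 0.29 (EIF4G1), -0.0042 to 0.16 (EIF4G3), -0.21 to 0.64 (EIF5A), -0.017 to 0.47 (EIF5A2) and -0.13 to 0.19 (EIF5B, 0.22 without both). The signs of EIF2B4 (-0.55 to 0.031), EIF2B5 (-0.52 to 0.068), EIF3G (-0.95 to 0.28) and EIF3I (-0.55 to 0.10) turned as well. EIF4EBP2 was 0.0028 with GC correction and 0.017 without both, and EIF4G3 -0.0076 without both. Differences of pair ratios ran from -0.49 to 0.23 (EIF4A1/EIF4A2), -0.38 to 0.17 (EIF4G1/EIF4G3), -0.55 to 0.20 (EIF4G1/EIF4G2), -0.092 to 0.84 (EIF4E/EIF4E2), -0.26 to 0.0036 (EIF4E/EIF4EBP2) and -0.42 to 0.51 (EIF5A/EIF5A2). The cause was not tested. Of 414 comparisons of the 26 members named by rule with an alternative, 387 kept their side and direction, 7 newly passed, and 20 changed sign. For members near 1 CPM or lower, counting error limits what can be seen.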
